A study of Mus musculus with 9 samples.

Results

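Runx1t1, its ETO family relatives Cbfa2t2 and Cbfa2t3, the RUNX transcription factor genes Runx1, Runx2 and Runx3, and Cbfb, the gene of the subunit that RUNX proteins share, were examined in mouse lymphomas. These are 7 of the 41128 genes in the count table, taken by their gene symbols. Runx1t1 was selected on its own counts, which were high in some tumors and absent from others, so its levels are given as a description with no test. The other 6 genes, called the relatives here, were selected by family and not by level. All 7 were among the 14057 genes that passed a filter on low counts. Runx1t1 passed only through tumors in which it was counted, those with high levels together with some with low ones.

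RNA was sequenced in bulk from 3 Bcl6 tumors and 6 Smc3/Bcl6 tumors, 1 library per tumor, to ask how the loss of 1 Smc3 allele changes the lymphomas that Bcl6 drives. The Bcl6 genotype is Smc3 wt/wt;Cγ1 wt/cre;IµBcl6 and the Smc3/Bcl6 genotype is Smc3 wt/-;Cγ1 wt/cre;IµBcl6, so that every tumor carries both the IµBcl6 transgene, which keeps Bcl6 on in B cells, and the Cre that is active in B cells entering the germinal center. Bone marrow of these genotypes was transplanted into irradiated mice, which were repeatedly immunized with sheep red blood cells and whose lymphomas were collected once the animals were moribund. The recipients keep cells of their own, and a tumor sample can hold T cells, macrophages and vessels beside the lymphoma. The labels name the mesenteric lymph node for replicate 1 of each genotype and only a lymph node for the remaining 7, and they give no ages. The study names mesenteric lymph nodes as the source of the RNA of both genotypes.

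RUNX proteins bind DNA through a Runt domain and do so as partners of Cbfb, which does not bind DNA by itself but strengthens the contact. Runx1 is required for blood stem cells and early B cells, Runx3 for CD8 and innate lymphoid cells, and Runx2 is best known from bone. The ETO proteins Runx1t1 (ETO), Cbfa2t2 (MTGR1) and Cbfa2t3 (ETO2) do not bind DNA and join transcription factors to corepressors with histone deacetylases. The families meet in the fusion of RUNX1 with RUNX1T1 in human acute myeloid leukemia.

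Levels are given as CPM, counts per 1e6 counts of a library after TMM scaling between libraries. The total counts lay between 10156728 and 17774577 per tumor. At this depth 3 counts, taken here as the most that a count of 0 allows, stand for 0.157 to 0.317 CPM. Smc3 itself had 88.1 to 126 CPM in the Bcl6 tumors and 89.7 to 111 CPM in 5 Smc3/Bcl6 tumors, and 27.9 CPM in Smc3/Bcl6 tumor 2. These counts cover the whole gene and do not show whether the allele was deleted. That library stood apart. The longer the exons of a gene, the lower it stood there relative to the other 8 tumors (across genes, Spearman correlation -0.47, against -0.03 to 0.27 for the other libraries), and values that rest on it are given with and without it. All 10 B cell markers were counted in every tumor, with a sum of 2798 to 12260 CPM, whereas the 8 markers of germinal center B cells summed to 54.6 to 221 CPM and Rgs13 and Nuggc were at 0 in Smc3/Bcl6 tumor 5. The 11 T cell markers summed to 126 to 3112 CPM. In such samples fewer cells of a type and less RNA per cell cannot be told apart.

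The gene Runx1t1 (ENSMUSG00000006586.10) occupies bases 13743436 to 13893649 of chromosome 4 (GRCm38, plus strand) and has 7959 bases of exon. It had 229 counts in Bcl6 tumor 1 and 366 in Bcl6 tumor 2, or 20.2 CPM (exact Poisson 95% interval 17.7 to 23.0) and 19.8 CPM (17.8 to 21.9). In Bcl6 tumor 3 it had 0 counts (exact Poisson 95% interval 0 to 0.349 CPM). The pair of tumors with the transcript thus held nearly the same level, and the third tumor of their genotype held none that was detectable.

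Among the Smc3/Bcl6 tumors, tumors 1, 2 and 6 had 0 Runx1t1 counts. Tumor 4 had 1 count. Tumor 5 had 9 counts, or 0.711 CPM (exact Poisson 95% interval 0.325 to 1.35), and tumor 3 had 26 counts, or 1.36 CPM (0.887 to 1.99). The low values in tumors 3 and 5 lay above the level that a count of 0 allows, and the level in Bcl6 tumor 2 was 14.6 times that in Smc3/Bcl6 tumor 3. The intervals cover counting error only. Of 12241 genes with at least 10 counts in both Bcl6 tumor 1 and Bcl6 tumor 2, 1 had a lower value there of at least 4 times its highest value in the other 7 tumors, and that gene was Runx1t1. Highest values under 0.317 CPM were set to 0.317 CPM for this rule, so a gene with few counts in the pair could not qualify. The rule was written after the values of Runx1t1 had been seen and serves only to describe them.

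**Figure D1:**
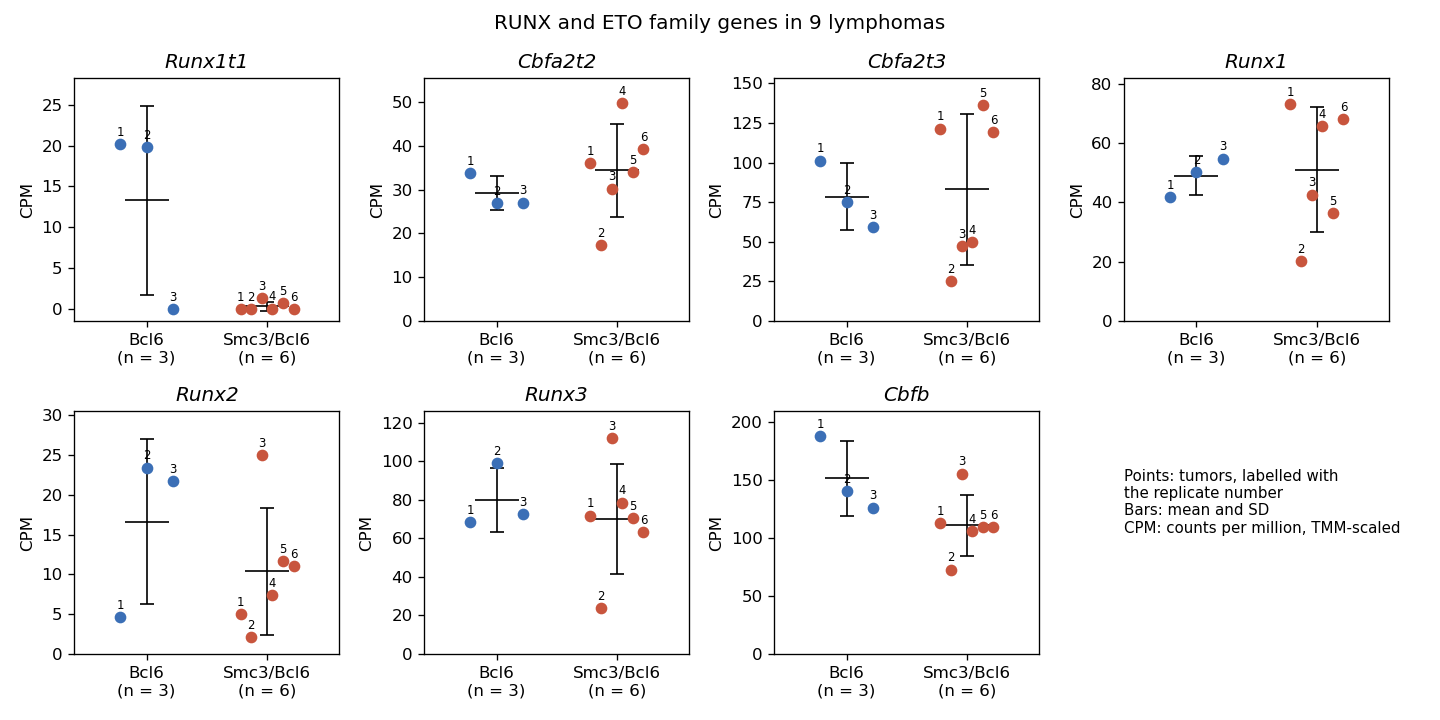
CPM of the 7 genes (vertical axes, each from 0 or from the lower end of the error bar) in 3 Bcl6 tumors and 6 Smc3/Bcl6 tumors, 1 point per tumor labelled with its replicate number, with the mean and SD of each genotype. Runx1t1 sits near 20 CPM in Bcl6 tumors 1 and 2 and at 1.36 CPM or below in the other 7, whereas the tumors of the genotypes overlap for each relative.

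The surroundings of Runx1t1 were nearly silent in all 9 tumors. Of the 16 other annotated genes that start within 1 Mb of its own start, 10 had 0 counts in every tumor, all 16 had at most 10 counts in any tumor, and 0 passed the filter on low counts. The nearest 3 before it were the microRNA gene Gm23162 and the pseudogenes Gm11825 and Gm11826, with 0, 0 and 10 counts over all tumors. The nearest 3 after it were the lincRNA gene Gm11823, the snoRNA gene Gm24068 and the pseudogene Gm11824, with 0, 0 and 8 counts. The protein-coding neighbors Slc26a7, Lrrc69 and Triqk had 0, 1 and 29 counts over all tumors. The lincRNA gene 1700120G11Rik, on the minus strand from 14219496 to 14237450 and 326 kb past the end of Runx1t1, had 6 counts in Bcl6 tumor 1, 4 in Bcl6 tumor 2 and 0 in the other 7 tumors. It and the 3 protein-coding genes were named after their values had been seen, and at such counts a low level in the other tumors may have been missed.

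The genes with a pattern most like that of Runx1t1 over the 9 tumors were listed by the Pearson correlation of log2 CPM, as a description over few points. They were Eml2, Hap1, Pafah1b1, Sp110, 9630013D21Rik, Cdk5rap1, Gm16861, Ing2, Ccnc and Rcor1, with r from 0.943 for Eml2 to 0.881 for Rcor1. Their patterns were smooth where that of Runx1t1 was not. Eml2 moved between 22.5 and 30.0 CPM over all tumors. Hap1 had 23.4 and 20.3 CPM in Bcl6 tumors 1 and 2, 6.05 CPM in Bcl6 tumor 3, 17.5 CPM in Smc3/Bcl6 tumor 3 and 4.76 to 8.92 CPM in the other 5. Rcor1, the gene of the corepressor CoREST, had 30.0 and 27.4 CPM in Bcl6 tumors 1 and 2 and 16.4 to 25.7 CPM in the other 7. Listed again without Smc3/Bcl6 tumor 2, 2 of the 10 genes stayed among the 10 most alike.

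Marker scores are given beside the Runx1t1 levels as a description with no test. For each of the 15 cell type lists with at least 3 markers past the filter, Bcl6 tumors 1 and 2 did not both lie beyond the other 7 tumors in mean log2 CPM. The T cell score was 3.60 in Bcl6 tumor 1 and 7.33 in Bcl6 tumor 2. The part of other cell types in the Runx1t1 level was not tested. The neuron and glia score, from 3 markers, was highest in Bcl6 tumor 1 at 2.24 but was 1.47 in Bcl6 tumor 2, below Smc3/Bcl6 tumor 6 at 1.67. The adipocyte and pancreas lists, with 1 and 2 markers past the filter, were not scored.

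Cbfa2t2 (chromosome 2 from 154436481 to 154539356) and Cbfa2t3 (chromosome 8 from 122625141 to 122699109) were on in every tumor. Cbfa2t2 had 33.8, 26.9 and 27.0 CPM in Bcl6 tumors 1 to 3. In Smc3/Bcl6 tumors 1 to 6 it had 36.0, 17.4, 30.2, 49.6, 34.0 and 39.2 CPM. The tumors of the genotypes overlapped, with the lowest value in Smc3/Bcl6 tumor 2 and the highest in Smc3/Bcl6 tumor 4. Its pseudogene Cbfa2t2-ps1 had at most 0.157 CPM.

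Cbfa2t3, the corepressor gene best known from red cell and megakaryocyte precursors, varied more. It had 101, 75.0 and 59.4 CPM in Bcl6 tumors 1 to 3. It had 121, 25.4, 47.4, 49.8, 136 and 119 CPM in Smc3/Bcl6 tumors 1 to 6. The Smc3/Bcl6 tumors thus fell on both sides of the Bcl6 tumors, tumors 1, 5 and 6 above all of them and tumors 2, 3 and 4 below all of them. Leaving out Smc3/Bcl6 tumor 2, the highest Cbfa2t3 level was 2.87 times the lowest, against 1.84 times for Cbfa2t2. Over those 8 tumors the SD of log2 CPM exceeded that of 65.3% of all genes tested for Cbfa2t3 and of 27.9% for Cbfa2t2.

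Levels of different genes were compared per kb of exon. Within the ETO family, Cbfa2t3 made up 50.8% to 80.2% of the summed CPM per kb (median 65.2%) and Cbfa2t2 19.3% to 49.1% (median 24.1%). Runx1t1 reached 13.7% in Bcl6 tumor 1 and 17.1% in Bcl6 tumor 2. Even there it was the least abundant of the family, and it was at most 1.83% elsewhere.

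Per kb of exon, RUNX levels were led by Runx3 (chromosome 4 from 135120652 to 135177990), a regulator of cytotoxic and innate lymphoid genes that B cells express too. It had 68.3, 99.0 and 72.5 CPM in Bcl6 tumors 1 to 3. It had 71.7, 23.8, 112, 78.5, 70.4 and 63.2 CPM in Smc3/Bcl6 tumors 1 to 6. Apart from Smc3/Bcl6 tumor 2, far below the rest, all tumors lay within a 1.77-fold range and Runx3 was among the steadier genes, with a larger SD than 26.7% of all genes tested over the 8 tumors. It made up 64.6% to 77.9% of the RUNX family's CPM per kb. In CPM not divided by exon length, Runx1 lay above Runx3 in Smc3/Bcl6 tumors 1 and 6.

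Runx1 (chromosome 16 from 92601466 to 92826149) has the longest exons of the 7 genes, 12025 bases. Its level was 41.9, 50.3 and 54.8 CPM in Bcl6 tumors 1 to 3. It had 73.1, 20.1, 42.6, 65.7, 36.5 and 68.0 CPM in Smc3/Bcl6 tumors 1 to 6. The Bcl6 tumors sat in the middle of the Smc3/Bcl6 range. Runx1 held 12.3% to 29.0% of the RUNX family's CPM per kb.

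Runx2 (chromosome 17 from 44495987 to 44814797) was the least abundant and most variable of the RUNX genes. It had 4.67, 23.4 and 21.7 CPM in Bcl6 tumors 1 to 3. It had 5.00, 2.12, 25.0, 7.39, 11.7 and 11.1 CPM in Smc3/Bcl6 tumors 1 to 6. Both genotypes held tumors above 20 CPM and tumors at 5.00 CPM or below. Without Smc3/Bcl6 tumor 2 the highest level was 5.34 times the lowest, and the SD exceeded that of 79.5% of all genes tested. Bcl6 tumors 1 and 2, nearly equal for Runx1t1, differed in Runx2.

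The partner subunit gene Cbfb (chromosome 8 from 105170674 to 105217989) was the most abundant of the 7 per kb of exon. Its level was 188, 140 and 126 CPM in Bcl6 tumors 1 to 3. It had 113, 72.6, 155, 106, 109 and 109 CPM in Smc3/Bcl6 tumors 1 to 6. The Bcl6 tumors lay above 5 of the 6 Smc3/Bcl6 tumors, and Smc3/Bcl6 tumor 3 at 155 CPM lay within their range. Per kb of exon, Cbfb stood at 1.38 to 1.71 times the sum of Runx1, Runx2 and Runx3 in 7 tumors, and at 3.05 times in Bcl6 tumor 1 and 3.13 times in Smc3/Bcl6 tumor 2. In CPM not divided by exon length, Cbfa2t3 lay above Cbfb in Smc3/Bcl6 tumors 1, 5 and 6.

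**Figure D2:**
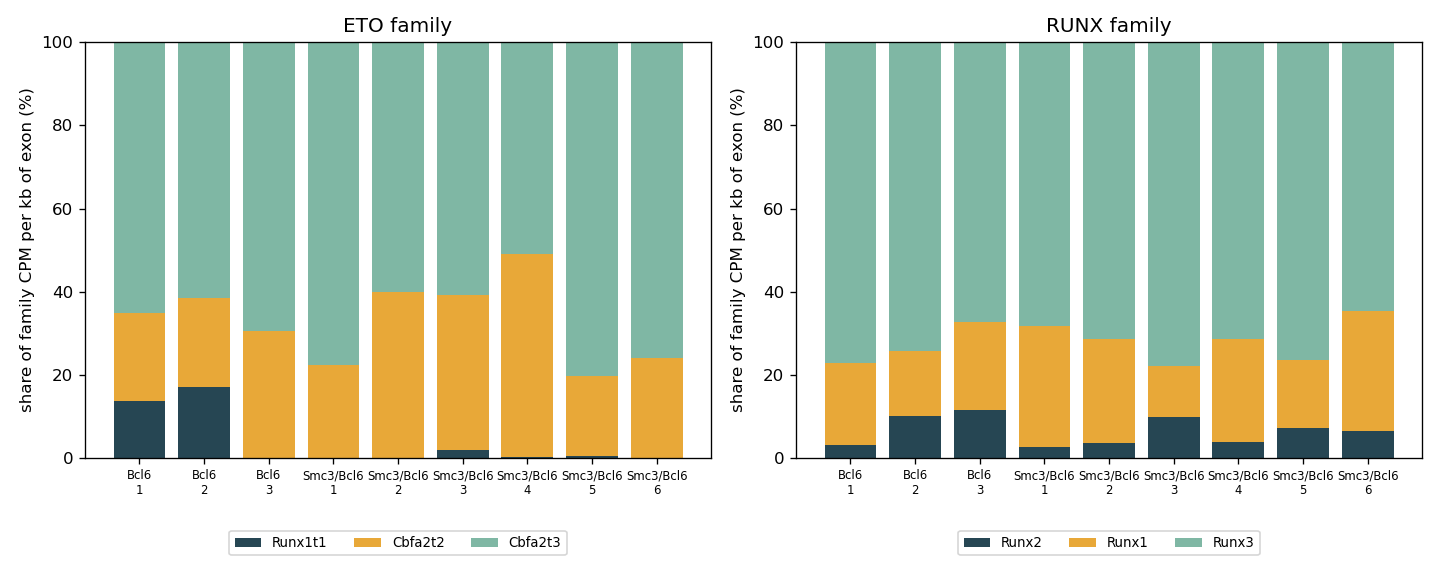
Share of each gene in the summed CPM per kb of exon of its family (vertical axis, %) in the 9 tumors (horizontal axis), with the ETO family on the left and the RUNX family on the right. Runx1t1 is visible in Bcl6 tumors 1 and 2 at 13.7% and 17.1%, and Runx3 makes up at least 64.6% of the RUNX family in every tumor.

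Ordered by the median CPM per kb over the 9 tumors, Cbfb came first at 32.4, followed by Runx3 at 14.3, Cbfa2t3 at 8.96, Runx1 at 4.19, Cbfa2t2 at 3.91, Runx2 at 1.25 and Runx1t1 at 0.00836. The orders of Cbfb over Runx3, of Cbfa2t3 over Runx1 and of Cbfa2t2 over Runx2 held in 9 of 9 tumors. Runx1 and Cbfa2t2 could not be told apart, with a mean log2 difference of 0.11 ± 0.36 (SD, n = 9). Runx3 over Cbfa2t3 held in 6 tumors and not in Smc3/Bcl6 tumors 1, 5 and 6 (0.66 ± 0.78). Runx2 was above Runx1t1 in 8 tumors and below it in Bcl6 tumor 1.

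RUNX proteins bind the core TGTGGT or TGCGGT, and the RUNX genes are known to carry such sites in promoters of their own, so the 250 bases before the annotated starts were searched for these 2 words on both strands. RefSeq entries of GRCm38.p6 gave 9 promoters for 6 members, all but Runx1t1. At least 1 core was found in 3 of the 9, against 18.6% of 32851 promoters. The 4 windows that hold one are printed 5′ to 3′ on the strand of the gene with the core in capitals, which reads as its complement ACCACA or ACCGCA because each lies on the other strand. The 2 windows of Runx3 overlap. These are matches of letters, and no binding was measured.
Cbfa2t3, chr8:122699216-122699245 (minus): cccccgacccccACCGCAttatcactgtga
Runx2, chr17:44814690-44814719 (minus): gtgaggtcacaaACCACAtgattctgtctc
Runx3, chr4:135120499-135120528 (plus): tctggtccctcaACCACAgaaccacaaggc
Runx3, chr4:135120507-135120536 (plus): ctcaaccacagaACCACAaggccaggccct
The core of Cbfa2t3 lies 124 bases before the distal of its RefSeq starts and that of Runx2 80 bases before its RefSeq start. The pair of Runx3 lies 134 and 126 bases before the distal of its RefSeq starts. By the position given above, Runx2 starts farther upstream, at 44814797, so its window lies inside the gene as given there. Counts per gene do not show which start was used.

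The relatives were then compared between the genotypes. The thresholds were those of the study, an absolute log2 fold change over 0.56 with an unadjusted p under 0.1, and 0 of the 6 passed them, where 2.15% of the 14057 genes tested did. Tumors of the genotypes overlapped for each of the 7 genes (0.484% of all genes tested did not overlap). The largest difference relative to its error was that of Cbfb, with a mean of 151 ± 32.3 CPM (SD, n = 3) without and 111 ± 26.3 CPM (SD, n = 6) with the Smc3 deletion. Its log2 fold change was -0.45 ± 0.26 (SE), and its Benjamini-Hochberg adjusted p was 1 in the quasi-likelihood test of edgeR. Without Smc3/Bcl6 tumor 3 it was -0.58 ± 0.24 (SE) and passed the thresholds, with an adjusted p of 1 from the same test. The background was 180 genes higher and 122 lower. With tumors 1 to 3 of each genotype fitted as pairs by their replicate numbers (the replicate block), it was 45 higher and 254 lower, and again 0 of the 6 relatives passed. The same 6 tumors without the block gave 168 higher of 256, also with 0 relatives. The split of the background moved with single tumors as well, to 126 higher of 366 without Bcl6 tumor 1 and 84 higher of 245 without Bcl6 tumor 2.

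The mean of Runx2 was 16.6 ± 10.4 CPM (SD, n = 3) in the Bcl6 group and 10.4 ± 8.01 CPM (SD, n = 6) in the Smc3/Bcl6 group. Its log2 fold change of -0.68 was smaller than its standard error of 0.70, and the interval of 2 standard errors ran from -2.08 to 0.73. Single tumors moved this value, to -1.16 without Bcl6 tumor 1, -1.20 without Smc3/Bcl6 tumor 3 and -0.40 without Bcl6 tumor 2, and it passed the thresholds in none of these fits. For Cbfa2t2 (29.3 ± 3.92 against 34.4 ± 10.6 CPM) the log2 fold change was 0.23 (interval -0.39 to 0.86). For Cbfa2t3 (78.6 ± 21.1 against 83.3 ± 47.6 CPM) it was 0.08 (interval -0.94 to 1.11).

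For Runx1 (49.0 ± 6.56 against 51.0 ± 21.1 CPM) it was 0.06 (interval -0.71 to 0.83), and for Runx3 (79.9 ± 16.7 against 69.9 ± 28.4 CPM) it was -0.19 (interval -0.97 to 0.59). The intervals reached past 0.56 in both directions for 4 of the 6 relatives and in 1 direction for Cbfa2t2 and Cbfb, and a p that misses the threshold does not show equal levels. Over replicates 1 to 3 alone the signs of Cbfa2t2, Cbfa2t3 and Runx1 turned, to -0.16, -0.56 and -0.33 with the replicate block and to -0.09, -0.29 and -0.15 without it. Those tumors include Smc3/Bcl6 tumor 2. With the block over replicates 1 and 3, chosen after seeing the data, the values were 0.12, -0.04 and 0.21. In Smc3/Bcl6 tumor 2 all 6 relatives were below their mean of the other 8 tumors, by -0.82 (Cbfb) to -2.36 (Runx2) on the log2 scale. After a curve of deviation on exon length was taken off, Cbfa2t2 and Runx1 stood at -0.02 and -0.03, Cbfa2t3 at -0.78, and Runx2 and Runx3 at -1.39 and -1.35. Cbfb, with the shortest exons of the 7, stood at -0.97, further down than before. Without that tumor, Runx3 had a log2 fold change of 0.00 between genotypes (standard error 0.22), and 0 of the 6 relatives passed the thresholds. In that fit Cbfa2t2 had 0.39 ± 0.19 (SE) and Cbfb -0.33 ± 0.18 (SE). Relative to its error, Cbfa2t2 then had the largest difference.

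**Figure D3:**
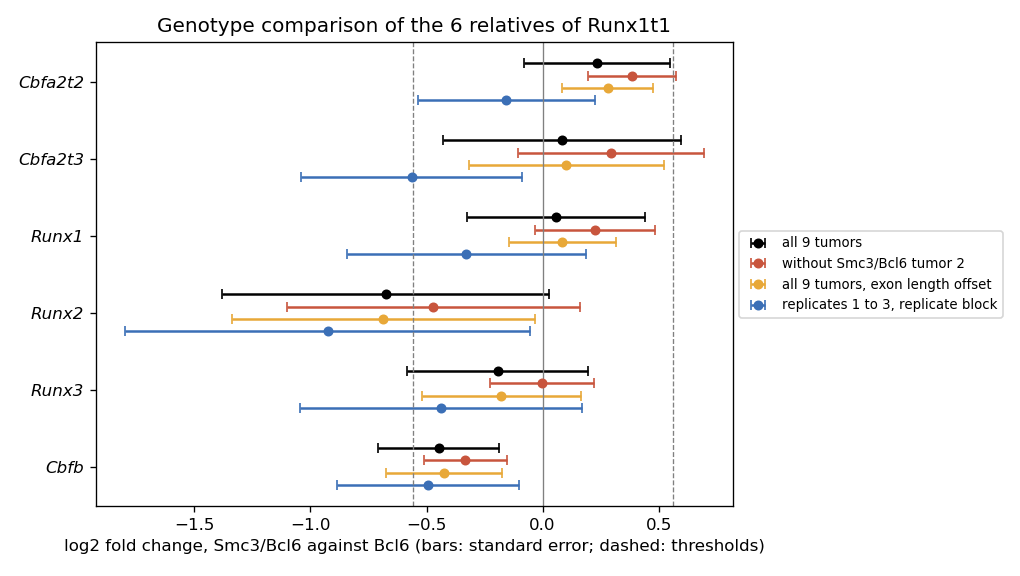
Log2 fold change of Smc3/Bcl6 against Bcl6 tumors (horizontal axis) with its standard error for the 6 relatives, over all 9 tumors, without Smc3/Bcl6 tumor 2, with an offset for exon length, and over replicates 1 to 3 with the replicate block. Dashed lines mark the thresholds of 0.56 in either direction, and Cbfa2t2, Cbfa2t3 and Runx1 have the opposite sign over replicates 1 to 3, with the block as drawn and also without it.

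Since the samples hold more than lymphoma cells, the log2 CPM of each relative was correlated with the mean log2 CPM of each of the 15 marker lists, 90 pairs in all, with two-sided exact permutation tests over all pairings of the tumors. An unadjusted p below 0.05 was found for 12 pairs by Pearson correlation and an adjusted p below 0.05 for 1. This was Runx1 with the endothelial list (r = 0.934, exact permutation p = 0.000444, adjusted p = 0.0399). Spearman's rho was 0.867 (exact permutation p = 0.00451, adjusted p = 0.323). Without Smc3/Bcl6 tumors 2 and 4, the farthest from the median of the score, r was 0.873. Among the 6 Smc3/Bcl6 tumors r was 0.933 (exact permutation p = 0.0139), and the 3 Bcl6 tumors are too few for a value. Without Smc3/Bcl6 tumor 2 it was 0.863 (exact permutation p = 0.00789, adjusted p = 0.142), no longer past the threshold. In that setting r of Runx1 with the plasma cell list was higher still (r = 0.891, exact permutation p = 0.00365, adjusted p = 0.134), a pair with r = -0.145 over all 9 tumors.

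The other 11 pairs with an unadjusted p below 0.05 had adjusted p from 0.207 to 0.326 in the same exact permutation tests and are given by r over the 9 tumors. For Cbfa2t2 these were the endothelial (0.817), B cell (0.803) and T cell (-0.671) lists. For the plasma cell list they were Cbfb (-0.833), Runx3 (-0.778) and Runx2 (-0.730). The remaining 5 were Cbfa2t3 with neuron and glia (0.738), Runx1 with megakaryocyte and platelet (0.711), Runx2 with mast cell and basophil (0.703), Runx2 with reticular and fibroblast stroma (0.688), and Runx3 with plasmacytoid dendritic cell (-0.662). In the order given, r without Smc3/Bcl6 tumor 2 was 0.600, 0.708, -0.713, -0.684, -0.536, -0.517, 0.611, 0.554, 0.949, 0.668 and -0.706. None passed the adjusted threshold in that setting. For the endothelial list, among the 6 Smc3/Bcl6 tumors, which include tumor 2, r with Cbfa2t2 was 0.935 (exact permutation p = 0.00278).

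Of the 9 endothelial markers, 5 passed the filter. Their sum over all 9 was 100 to 119 CPM in the Bcl6 tumors and 17.8 to 331 CPM in the Smc3/Bcl6 tumors. Tek was at 0 in Bcl6 tumors 2 and 3 and in Smc3/Bcl6 tumors 2, 3 and 4, and Emcn in Bcl6 tumor 1 and Smc3/Bcl6 tumors 1, 2, 4 and 6. Tie1 was at 0 in Bcl6 tumor 1 and Smc3/Bcl6 tumors 1 and 2, Lyve1 in Smc3/Bcl6 tumor 1 and Prox1 in Smc3/Bcl6 tumor 5. The highest score, 2.93 in Smc3/Bcl6 tumor 4, thus came with Tek and Emcn at 0. The part of endothelial cells in the Runx1 level was not tested.

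The pair with the highest r without Smc3/Bcl6 tumor 2, chosen for description after the values were seen, was Runx2 with the mast cell and basophil list. Over all 9 tumors it did not pass the adjusted threshold (r = 0.703, exact permutation p = 0.0392, adjusted p = 0.326, with rho = 0.750, exact permutation p = 0.0255, adjusted p = 0.379). Without the 2 tumors farthest from the median of the score r was 0.613. Without Smc3/Bcl6 tumor 2, in which Runx2 was lowest, r was 0.949 (exact permutation p = 0.00139, adjusted p = 0.125), and r with the T cell and with the cytotoxic and NK cell lists was 0.890 and 0.893. Among the 6 Smc3/Bcl6 tumors r was 0.499 (exact permutation p = 0.312). None of these passed the adjusted threshold. The 7 mast cell and basophil markers summed to 0.882, 45.1 and 53.8 CPM in Bcl6 tumors 1 to 3 and to 0.486 to 54.9 CPM in the Smc3/Bcl6 tumors, with 5 of the 7 at 0 in Smc3/Bcl6 tumor 1 (Cma1, Cpa3, Fcer1a, Mcpt4 and Ms4a2). The tumors with the 3 highest sums, Bcl6 tumors 2 and 3 and Smc3/Bcl6 tumor 3, were those with Runx2 above 20 CPM. The part of these cells in the Runx2 level was not tested.

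**Figure D4:**
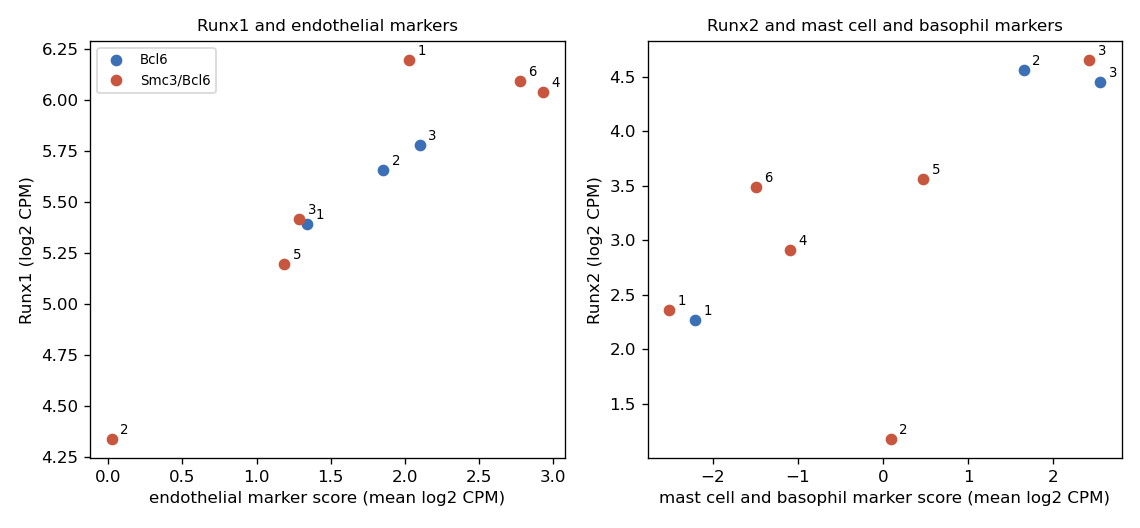
Log2 CPM of Runx1 against the endothelial marker score and of Runx2 against the mast cell and basophil marker score (mean log2 CPM), 1 point per tumor labelled with its replicate number and colored by genotype. Smc3/Bcl6 tumor 2 is the lowest on both vertical axes, and it lies along the trend of the other tumors on the left but below it on the right.

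The genes most like each relative over the 9 tumors were Gm28043, Ccdc15 and Prdm9 for Cbfa2t2 (r from 0.980 to 0.991), Wfs1, Fbxl19 and Wdr35 for Cbfa2t3 (0.966 to 0.974), and Fbxl18, Zfyve1 and Zdhhc23 for Runx1 (0.969 to 0.986). They were Nckap1, Nbeal2 and Ptpn12 for Runx2 (0.962 to 0.970), Rfx1, Rasa1 and Degs2 for Runx3 (0.966 to 0.973), and Smc2, Ppp2r2a and Etaa1 for Cbfb (0.964 to 0.974). The lists leaned on Smc3/Bcl6 tumor 2. Listed again without it, 6 of the 28 genes named for the 7 members remained. The genes then most like Runx2 were Sytl3, Tcrg-C2, the constant region of a T cell receptor gamma chain, and Als2cl (r from 0.975 to 0.987 over 8 tumors). Smc2, a condensin subunit, remained for Cbfb (r = 0.967 over 8 tumors).

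The partners and targets of the families were read from 4 lists, of which 60 different genes were tested and 2 passed the thresholds, a share near the 2.15% of all genes tested. Of the 10 corepressor partners of ETO proteins, 0 were higher and 0 lower, against 1.28% and 0.868% of all genes tested, so that lists of this size would hold few or none. The median log2 fold change was -0.13, against 0.06 over all genes tested. Hdac3, the deacetylase of the NCoR complex, had the smallest p of this list together with Sin3a, with log2 fold changes of 0.37 ± 0.34 (SE) and -0.35 ± 0.36 (SE). Gps2 and Hdac3 had the highest levels, at 54.9 and 33.5 CPM per kb.

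Of 14 DNA-binding partners of ETO proteins, 12 were tested and 0 passed in either direction (2.15% of all genes tested did), with a median log2 fold change of 0.27. Ldb1 and Tcf3 had the smallest p, with 0.42 ± 0.29 and 0.43 ± 0.35 (log2 fold change ± SE). Tcf3, an E protein, was also the most abundant at 58.4 CPM per kb. Bcl6 followed at 53.2, and counts of the Bcl6 gene and of the IµBcl6 transgene were not separated here. The ranking leaned on exon length, since Tcf4, at 14.7 CPM per kb, had a mean of 401 CPM against 236 for Tcf3. Of 19 cofactors of RUNX proteins, 18 were tested and 0 passed (against the same 2.15%), with a median of 0.03. The kinase gene Hipk1 and the corepressor gene Tle1 had the smallest p, with 0.44 ± 0.35 and 0.64 ± 0.52 (log2 fold change ± SE), and Ets1 and Aes had the highest levels, at 63.8 and 43.8 CPM per kb, among the 17 with an exon length. Prmt1, at a mean of 194 CPM, had none and was not ranked.

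Of 28 genes bound and regulated by RUNX proteins, 21 were tested, 0 were higher (1.28% of all genes tested were) and 2 were lower (0.868%), with a median of -0.24. The 2 lower genes were Elane and Mpo, which encode granule proteins of neutrophil precursors. Elane stood at 0.529, 0.486 and 75.2 CPM in the 3 Bcl6 tumors and at 0 to 4.27 CPM in the Smc3/Bcl6 tumors (log2 fold change -4.00 ± 1.50 SE, with an adjusted p of 1 in the same edgeR test). Mpo stood at 1.50, 0.864 and 209 CPM and at 0.395 to 17.6 CPM (-3.84 ± 1.51 SE, with an adjusted p of 1 in the same edgeR test).

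Both calls rested on Bcl6 tumor 3. Without that tumor 0 list genes passed. The 9 neutrophil markers, which include Elane and Mpo, summed to 2154 CPM in it, to 23.2 and 179 CPM in the other Bcl6 tumors and to 10.8 to 897 CPM in the Smc3/Bcl6 tumors, with Elane and Ltf at 0 in Smc3/Bcl6 tumor 5. The part of neutrophils in these values was not tested. The B cell gene Cd79a was the most abundant of this list at 623 CPM per kb and the granzyme gene Gzmb the next at 167, and neither passed the thresholds. At an adjusted p below 0.05, 0% of all genes tested passed with edgeR, and 0 with DESeq2 or with limma, while 79 had an unadjusted p below 0.05 with edgeR.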

How the data were processed

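Reads were aligned by the authors to mm10 with STAR and counted over Gencode genes with featureCounts, within an nf-core workflow, and the deposited values are raw counts per gene, without normalization. Their notes name DESeq2 1.28.1 and R 4.0.2. Strandedness is not given in the sources used here. Exons of Cbfa2t3, Runx1 and Runx2 overlap antisense genes over 3.52%, 0.881% and 5.87% of their bases, and reads of such partners could not be told apart. Positions and union exon lengths came from GENCODE M21 (GRCm38), which held 97.9% of the identifiers.

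Groups came from the sample labels. Counts were scaled by TMM, filtered by genotype and compared over 9 tumors with edgeR 4.0.16 in R 4.3.3 (quasi-likelihood test, Benjamini-Hochberg adjustment over all genes tested), with no covariate and the thresholds of the study. Log2 CPM used a prior count of 2. DESeq2 1.42.0, limma 3.58.1 with quality weights, and other settings served as alternatives, and the scripts were tested on simulated data. Nothing in the labels says more of the replicates than that they are separate samples, so separate animals are not established by them. The p-values of edgeR rest on the spread between tumors within a genotype. Those of the permutation tests rest on pairings of tumors across both genotypes, except where only Smc3/Bcl6 tumors were used.

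The members, the lists of genes and the tests were chosen with earlier results of these data known. Genes named are all members, for each list those past the thresholds or else the 2 with the smallest p, and the 2 with the highest level, the 10 genes most like Runx1t1 and the 3 most like each relative, and the 3 nearest Runx1t1 on each side. Exceptions are named as such where they occur. Replicate numbers 1 to 3 occur in both genotypes, and deviations from the group means correlated at 0.443, 0.113 and 0.155 across genes between tumors of the same number, a pairing that comes only from the labels.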

Additional observations from a re-analysis of the deposited data

Results flagged for a closer look

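Among the 6 Smc3/Bcl6 tumors, 21 values (the 6 relatives, without Runx1t1, and 15 marker scores) were examined for a tumor whose gap to its nearest neighbor was large against the whole range (Dixon's ratio, 95% critical value). About 1 in 20 such groups passes by chance, or 1.05 here, and 2 passed. Runx3 was low in Smc3/Bcl6 tumor 2, at a log2 CPM of 4.58 against 5.98 to 6.81 in the other 5, a gap over range of 0.6296. The macrophage score was low in Smc3/Bcl6 tumor 1, at 3.44 against 6.23 to 7.73, a gap over range of 0.6507. That tumor also had the lowest T cell score, at 2.01, and a Runx2 level of 5.00 CPM.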

How the results depend on the processing

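The count of relatives past the thresholds was 0 under every alternative run except 1, the one without Smc3/Bcl6 replicate 3, where Cbfb passed (range 0 to 1 over the fits that left out a tumor). The 302 genes past the thresholds became 1388 with no low-count filter (576 higher), 1644 with limma and quality weights (642 higher), 77 at an unadjusted p below 0.05, and 159 to 624 with a tumor left out (126 higher of 366 without Bcl6 replicate 1, 84 of 245 without Bcl6 replicate 2). DESeq2 gave 443 (342 higher), the tissue label as a covariate 322 (130 higher), RLE scaling 302 (195 higher) and the exon length offset 329 (211 higher). The 2 list genes became 0 with DESeq2, 8 with limma, 4 with the replicate block over replicates 1 and 3, and 0 to 4 with a tumor left out (4 without Smc3/Bcl6 replicate 2 or 3, 3 without Smc3/Bcl6 replicate 5, 0 without Bcl6 replicate 3). With the replicate block over replicates 1 to 3 there were 299 genes (45 higher), and the log2 fold changes of Cbfa2t2, Cbfa2t3 and Runx1 were -0.16, -0.56 and -0.33. The same tumors with no replicate block, chosen after seeing the data, gave 256 genes (168 higher) and -0.086, -0.29 and -0.15, so these signs turned with the choice of tumors. The block over replicates 1 and 3, also chosen after seeing the data, gave -0.039 for Cbfa2t3, 0.14 for Runx2 and 0.34 for Runx3. With a tumor left out, Cbfa2t3 ran from -0.11 to 0.29, Runx1 from -0.11 to 0.23, Cbfa2t2 from 0.098 to 0.39, Runx2 from -1.20 to -0.40, Runx3 from -0.40 to -0.0034 and Cbfb from -0.58 to -0.32. With limma and quality weights Cbfa2t2 had 0.39 ± 0.16 (SE), under the threshold of 0.56. Its limma p was 0.0368 unadjusted and 0.563 adjusted. The 1 correlation past the adjusted threshold became 0 with a prior count of 0.5, with Spearman and without Smc3/Bcl6 replicate 2. It also became 0 in the 6 Smc3/Bcl6 tumors. There the pairings are so few that a lone pair could not pass after adjustment, whatever its r. Of the 28 most alike genes, 27 remained with a prior count of 0.5, 5 with Spearman and 6 without Smc3/Bcl6 replicate 2. Where not stated, the cause was not tested. With 3 Bcl6 tumors the intervals of 4 relatives reach past 0.56 in both directions, and the depth allows up to 0.317 CPM of a gene at 0.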
